A study of Arabidopsis thaliana with 30 samples.

Results

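The comparison described here is that of shoots pretreated with ethanol and shoots pretreated with water at 3 days after drought onset (DAD), chosen by the harvest and pretreatment in the sample labels. It takes 6 of the 30 libraries of the study, 3 from each arm, and 19249 genes were tested in it. All plants were wild-type Arabidopsis thaliana of the Col-0 ecotype, transferred as seedlings from MS medium to ceramic granular soil. Pots stood for 3 days in trays with 10 mM ethanol or with water, the trays were then emptied, and shoots were harvested after 0, 1, 3, 5 or 7 days without watering, in 3 replicates for each arm. Both groups compared here had therefore passed 3 days without watering, the ethanol group after its pretreatment had ended. The study asks how ethanol given before drought changes the course of the drought response, and the harvest at 3 DAD falls in the early phase of drying.

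The 6 libraries held 7395891 to 9151636 counts, within the range of 3625884 to 14735127 over the study. Levels are given as CPM, the count of a gene relative to the library total scaled with TMM factors, and are not divided by gene length, so they compare libraries and not genes. The tissue label was checked against marker genes. The 6 leaf mesophyll markers summed to 55900 to 68400 CPM in every library, and 7 to 9 of the 11 root markers were at 0, with a sum of 35.4 to 78.2 CPM. Xylem markers summed to 148 to 200.5 CPM and 6 reference genes to 2642 to 3153 CPM. The deposited material is a bulk shoot, so fewer cells of a type and less RNA per cell cannot be told apart. The methods call the replicates biological without saying how many plants or pots each one held. The p-values therefore rest on the spread between replicate libraries. That spread was estimated from all 30 libraries of the study together, other harvests included, and not from these 6 alone.

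Plants hold genes whose mRNA can rise within minutes of touch, wounding, cold, chitin or a rise in calcium in the cell, and several of the gene lists used here are drawn from them. Calcium sensor proteins such as the calmodulin-like proteins bind the ion through EF-hands and pass the signal to kinases and transcription factors. Among these factors are the C2H2 and CCCH zinc finger proteins, the ethylene response factors (ERF), the dehydration-responsive element binding factors (DREB and CBF) and the WRKY factors, many of which are induced and broken down quickly. Other lists concern the anther. Its tapetum, the cell layer that feeds developing pollen, makes oleosin-type glycine-rich proteins (GRP) and extracellular lipases (EXL) that become part of the pollen coat.

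In ethanol-treated shoots 171 genes were higher than in water-treated shoots and 20 were lower. Calls were made at an adjusted p-value under 0.1 from edgeR's quasi-likelihood test with Benjamini-Hochberg adjustment over all tested genes, the error rate that the study used. The 191 genes were 0.992% of those tested, 0.888% higher and 0.104% lower. At least a 2-fold difference was found for 130 of the higher and 15 of the lower genes, together 0.753% of those tested, and 7.57% of tested genes had an unadjusted p-value under 0.05. In 126 of the 171 higher genes every ethanol library lay above every water library, against 7.34% of all tested genes. In 18 of the 20 lower genes every ethanol library lay below every water library, against 6.63% of all tested genes. Both sets were called from the values of these same libraries, so their shares without overlap are no separate evidence. The median log2 fold change over all tested genes was 0.00201.

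How many genes are called depends on single libraries, among them ethanol replicates 1 and 3. Without ethanol replicate 3 the count rose to 311 (295 higher, 16 lower), and without ethanol replicate 1 it fell to 43 (35 higher, 8 lower). Leaving out ethanol replicate 2 gave 84, and leaving out water replicate 1, 2 or 3 gave 95, 75 and 84. All 191 genes kept their direction in each of these 6 fits. The fits share most of their libraries with the one that made the calls, so the kept direction is no independent check. Only 32 of the higher and 5 of the lower genes were called in all 6, and a further 64 higher genes were called in none of the 6 but the fit without ethanol replicate 3. The 32 were SRC2, PUP14, AT1G22190, AT1G23710, AT1G27100, STZ, ERF11, PUP18, FBS1, TPS8, AT1G74450, CML38, AT2G24550, AT2G30020, WRKY33, AT2G38790, HSPRO2, CZF1, CAMBP25, ERD15, MSS3, AT3G04640, SZF1, CPK32, PIT1, WRKY11, AT4G32060, BT5, NHL3, AT5G10695, TCH2 and CPK28. The 5 lower genes were XTH3, AT4G33355, AT4G38860, GRP17 and GRP19.

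The stretches upstream of 5 genes are printed because the letters they hold occurred at unequal frequency upstream of higher, lower and all tested genes. Each is the 250 bases before the annotated start of the gene in RefSeq's TAIR10.1 assembly, read 5′ to 3′ in the direction of transcription. Capitals mark TTGAC, the core of the W-box bound by WRKY factors, or CGCGT, the core of the element bound by calmodulin-binding transcription activators (CAMTA), on either strand. TCH2, SZF1, WRKY11 and NHL3 were among the higher genes called in all 6 fits, and GRP17 was among the lower genes. The higher genes printed are examples that hold matches and do not stand for the whole set. HSPRO2, MSS3, TPS8 and PIT1, also called in all 6 fits, held neither motif in the same stretch.
TCH2, chr5:14999620-14999869, minus strand: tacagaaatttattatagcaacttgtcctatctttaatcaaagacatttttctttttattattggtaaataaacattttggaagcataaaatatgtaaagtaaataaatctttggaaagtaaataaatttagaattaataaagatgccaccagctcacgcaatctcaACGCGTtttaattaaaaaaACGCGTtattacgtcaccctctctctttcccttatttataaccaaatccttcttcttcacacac
SZF1, chr3:20775970-20776219, plus strand: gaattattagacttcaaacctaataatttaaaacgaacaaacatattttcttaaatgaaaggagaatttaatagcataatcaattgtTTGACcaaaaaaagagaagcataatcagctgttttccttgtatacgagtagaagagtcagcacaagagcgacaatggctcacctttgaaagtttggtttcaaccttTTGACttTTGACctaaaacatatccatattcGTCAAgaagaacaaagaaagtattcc
WRKY11, chr4:15291935-15292184, minus strand: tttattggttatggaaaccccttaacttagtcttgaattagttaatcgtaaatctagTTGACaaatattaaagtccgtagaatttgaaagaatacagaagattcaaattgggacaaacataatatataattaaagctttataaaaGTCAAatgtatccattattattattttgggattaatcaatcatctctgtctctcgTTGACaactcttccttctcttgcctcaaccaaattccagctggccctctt
NHL3, chr5:1931783-1932032, minus strand: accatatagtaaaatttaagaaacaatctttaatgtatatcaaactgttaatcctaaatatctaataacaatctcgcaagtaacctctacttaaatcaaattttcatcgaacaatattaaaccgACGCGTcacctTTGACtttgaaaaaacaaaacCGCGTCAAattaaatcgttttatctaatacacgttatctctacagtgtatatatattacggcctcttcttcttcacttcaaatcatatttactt
GRP17, chr5:2384526-2384775, minus strand: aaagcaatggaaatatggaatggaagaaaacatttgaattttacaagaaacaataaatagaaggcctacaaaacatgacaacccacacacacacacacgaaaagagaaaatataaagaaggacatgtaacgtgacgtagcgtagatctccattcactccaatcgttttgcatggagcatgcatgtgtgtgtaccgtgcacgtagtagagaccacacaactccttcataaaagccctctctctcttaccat
TCH2 held 4 matches to CGCGT and none to TTGAC, in 2 copies of ACGCGT, which reads as CGCGT on both strands and so counts as 2 matches. SZF1 held 4 matches to TTGAC and WRKY11 held 3, with no CGCGT in either. NHL3 held both, with 2 matches to TTGAC and 3 to CGCGT, and in CGCGTCAA both motifs overlap. GRP17 held neither.

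The same letters were counted over a window of 300 bases, from 250 before to 50 after the start, which could be cut for 169 of the 171 higher genes, all 20 lower genes and 19069 tested genes. TTGAC on either strand was present in 110 windows of higher genes (65.1%), in 7 of lower genes (35%) and in 50.6% of all windows. CGCGT was present in 52 windows of higher genes (30.8%), in 0 of lower genes and in 9.56% of all windows. Among the 32 higher genes called in every fit, 22 windows (68.8%) held TTGAC and 10 (31.2%) held CGCGT. The abscisic acid response element core ACGTG was present in 34.3% of higher, 40% of lower and 28.2% of all windows, and the G-box CACGTG, which contains it, in 12.4%, 5% and 9.26%. CCGAC, the core bound by DREB and CBF factors, was present in 18.9%, 5% and 16.3%, and the GCC box GCCGCC, bound by ERF factors, in 4.14%, 0 and 2.57%. The motif shares are descriptions of letters in these windows and were not tested.

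Calcium sensors were among the genes with the largest differences. Of 18 tested members of the calcium sensor and transporter list, 5 were higher and 0 lower, against 0.888% and 0.104% of all tested genes. The median log2 fold change of the list was 0.87. Values ran from -3.34 to 3.39, and 8 were higher and 1 was lower at an unadjusted p-value under 0.05. Every ethanol library lay above every water library in 7 members and below it in 3, against 7.34% and 6.63% of all tested genes. Members and lists were chosen with earlier results of these data known, so counts and medians of the lists are no separate evidence. CML38, a calmodulin-like protein, stood at 84.8, 68.1 and 9.92 CPM in ethanol replicates 1, 2 and 3 and at 5.55, 5.89 and 4.08 CPM in water. The first 2 ethanol libraries were far above all others, the third lay just above the water libraries, and the log2 fold change was 3.39 (adjusted p = 0.000701, SE 0.516). TCH2, a calmodulin-like protein whose mRNA rises after touch, had 130.0, 103.7 and 46.4 CPM in ethanol and 23.2, 17.01 and 14.9 CPM in water. All ethanol libraries of TCH2 were above all water libraries, with a log2 fold change of 2.35 (adjusted p = 0.000352, SE 0.340). MSS3, a calmodulin-like gene that was not in the list and is named after its values were seen, had 124, 113 and 46.7 CPM against 33.6, 22.5 and 27.8 CPM, a log2 fold change of 1.77 (adjusted p = 0.000164, SE 0.233).

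Calcium-dependent protein kinases carry their own EF-hands and phosphorylate targets when calcium binds. CPK32 had 78.9, 53.0 and 27.1 CPM in the ethanol and 22.1, 20.8 and 16.8 CPM in the water libraries, a log2 fold change of 1.41 (adjusted p = 0.0013, SE 0.229). CPK28, a kinase of immune signalling, had 52.0, 39.0 and 23.1 CPM against 15.5, 15.5 and 14.9 CPM, a log2 fold change of 1.31 (adjusted p = 0.0029, SE 0.231). The groups did not overlap for either kinase, although CPK28 overlaps AT5G66200 on the same strand, so some reads may have been counted for both genes. TCH3, a calmodulin-like protein with several EF-hand pairs, had 437, 345 and 127 CPM against 108, 146 and 109 CPM. The groups of TCH3 overlapped through ethanol replicate 3, and its log2 fold change of 1.32 (adjusted p = 0.0964) was called without ethanol replicate 3 but in no other fit that left out 1 library. TCH4, a xyloglucan endotransglucosylase of the cell wall and also a touch gene, had 140.3, 106 and 60.7 CPM against 22.3, 23.2 and 20.9 CPM, with a log2 fold change of 2.21 (adjusted p = 0.0083, SE 0.437) that was not called without ethanol replicate 1. Among all 53 tested genes annotated as EF-hand or calmodulin-like proteins, a grouping made after the values were seen, 9 were higher (17%). The median log2 fold change of these 53 was 0.098, and of all tested genes 0.888% were higher.

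The stress zinc finger proteins had the highest median of the gene lists, a log2 fold change of 1.66 over 12 tested members. Of these, 5 were higher and 0 lower, against 0.888% and 0.104% of all tested genes. The lists were chosen with earlier results of these data known, so the ranking is a description only. The summed level of the zinc finger list was 749.7, 616.4 and 169.8 CPM in ethanol and 98.1 to 118.3 CPM in water. SZF1, a CCCH protein of salt and immune responses, had 292, 223 and 44.6 CPM in ethanol and 22.9, 20.5 and 20.5 CPM in water. The 3 water libraries were nearly equal, and ethanol replicates 1 and 2 were several times higher, with a log2 fold change of 3.13 (adjusted p = 0.00030, SE 0.442). CZF1, its close homologue also known as SZF2, had 125, 95.6 and 38.3 CPM against 22.3, 24.6 and 30.6 CPM, a log2 fold change of 1.74 (adjusted p = 0.0030, SE 0.309). STZ, a C2H2 repressor also known as ZAT10 that is induced by salt, cold and drought, had 150.8, 127 and 22.4 CPM against 20.8, 14.8 and 12.5 CPM. Ethanol replicate 3 of STZ was only just above water replicate 1, and the log2 fold change was 2.65 (adjusted p = 0.0045, SE 0.492). For ZAT6 and ZF2 (AZF2), of the same C2H2 class, the log2 fold changes were 1.76 (adjusted p = 0.0194) and 1.57 (adjusted p = 0.0153). ZAT6 lost its call without ethanol replicate 1, ethanol replicate 2 or water replicate 3, and ZF2 without ethanol replicate 1, ethanol replicate 2, water replicate 1 or water replicate 3.

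**Figure D1:**
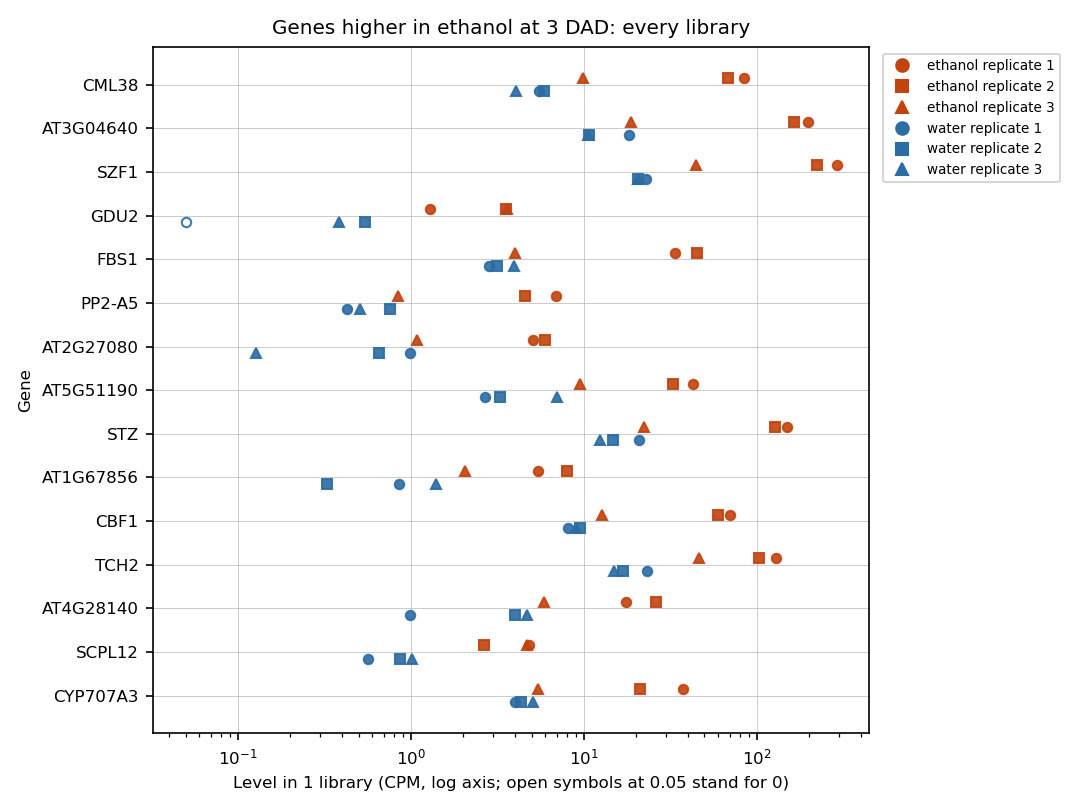
CPM (log axis) of each ethanol library (replicates 1, 2 and 3) and each water library at 3 DAD for the 15 higher genes with the largest log2 fold change among those whose groups do not overlap, with an open symbol at 0.05 CPM standing for 0. CML38 has 84.8 and 68.1 CPM in ethanol replicates 1 and 2 and 9.92 CPM in replicate 3, while SCPL12 has 4.83, 2.67 and 4.72 CPM.

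Of the list of ERF factors, 4 of 24 tested members were higher and 0 lower (median 0.64). The shares over all tested genes were 0.888% and 0.104%. Over all 75 tested genes annotated as ERF, DRE-binding or related AP2/ERF factors, 8 were higher (10.7%) and the median was 0.155. This grouping was made after the values were seen. ERF11, a repressor of ethylene biosynthesis genes, had the highest log2 fold change of any called gene. It had 46.8, 43.9 and 2.90 CPM in ethanol and 1.57, 3.38 and 1.15 CPM in water. Ethanol replicate 3 was below water replicate 2, so the groups overlapped, and the log2 fold change was 3.90 (adjusted p = 0.0013, SE 0.633). AT5G51190, an ERF also named ERF105, had 43.1, 32.7 and 9.56 CPM against 2.70, 3.27 and 7.01 CPM (log2 fold change 2.71, adjusted p = 0.0124) and lost its call without ethanol replicate 1, water replicate 1 or water replicate 2. ERF104, a substrate of an immune MAP kinase, had 74.5, 76.4 and 38.3 CPM against 22.3, 14.3 and 16.3 CPM (1.84, adjusted p = 0.0281) and was called only without ethanol replicate 3 or water replicate 1. ERF4, a repressor, had 236, 250.1 and 73.9 CPM against 83.5, 78.8 and 83.0 CPM. Ethanol replicate 3 of ERF4 was below all 3 water libraries, and its log2 fold change of 1.19 (adjusted p = 0.0146) was called only without ethanol replicate 3, water replicate 1 or water replicate 3.

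DREB and CBF factors bind the dehydration-responsive element of cold and drought genes, and 2 of 11 tested members were higher and 0 lower (median 0.47). Among all tested genes 0.888% were higher and 0.104% lower. CBF1, a cold-induced member, had 70.6, 59.5 and 12.7 CPM in ethanol and 8.11, 9.49 and 9.05 CPM in water, with a log2 fold change of 2.42 (adjusted p = 0.0188, SE 0.521). DREB2A, the member induced by drought and heat, had 30.2, 37.5 and 16.1 CPM against 9.96, 4.25 and 11.5 CPM, with a log2 fold change of 1.72 (adjusted p = 0.0358, SE 0.405). The groups of both genes did not overlap. CBF1 was called only without ethanol replicate 3, and DREB2A only without ethanol replicate 3 or water replicate 3. The neighbouring cold-induced DREB1A was not called (0.10, adjusted p = 0.988), with 43.1 to 55.7 CPM in ethanol and 40.8 to 51.9 CPM in water.

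WRKY factors act in defence and stress, often by regulating one another, and 6 of 24 tested members of the list were higher and 0 lower (median 0.41). The shares over all tested genes were 0.888% higher and 0.104% lower. Over all 47 tested genes annotated as WRKY, a grouping made after the values were seen, the same count of 6 was higher (12.8%). The median log2 fold change of these 47 was 0.066. WRKY33, needed for resistance to necrotrophic fungi, had 221, 172 and 43.9 CPM in ethanol and 36.3, 32.1 and 37.7 CPM in water. Ethanol replicate 3 was again close to the water libraries but above them, and the log2 fold change was 2.04 (adjusted p = 0.0016, SE 0.340). WRKY11, a negative regulator of basal resistance, differed less but more evenly, with 82.1, 70.6 and 49.96 CPM against 37.8, 33.7 and 37.0 CPM and a log2 fold change of 0.90 (adjusted p = 0.0029, SE 0.159). WRKY40, a repressor of defence and abscisic acid genes, had 97.2, 67.5 and 6.41 CPM against 16.1, 4.91 and 10.8 CPM, with a log2 fold change of 2.45 (adjusted p = 0.0784, SE 0.637). The groups of WRKY40 overlapped, and it shares a stretch of 465 bases at 96.3% identity with AT3G32090, so its count is uncertain. WRKY53, WRKY22 and WRKY15 had log2 fold changes of 1.92 (adjusted p = 0.0206), 1.98 (adjusted p = 0.038) and 1.04 (adjusted p = 0.0666). WRKY40, WRKY22 and WRKY15 were called only without ethanol replicate 3, and WRKY53 only without ethanol replicate 3 or water replicate 2.

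The list of MAP kinases, ubiquitin ligases and mRNA decay factors gave 4 higher and 0 lower genes of 19 tested (median 1.00), and 10 higher genes without ethanol replicate 3. Among all tested genes 0.888% were higher and 0.104% lower. Without ethanol replicate 3, 1.58% of tested genes were called in either direction. CNI1, a membrane ubiquitin ligase also known as ATL31 that acts in the response to carbon and nitrogen supply, had 70.8, 72.3 and 22.5 CPM in ethanol and 17.64, 14.5 and 12.4 CPM in water (log2 fold change 1.90, adjusted p = 0.0281). ATL6, its closest homologue, differed by 0.93 on the same scale (adjusted p = 0.0278). PUB18, a U-box ubiquitin ligase that dampens drought responses to abscisic acid, had 12.0, 11.4 and 9.43 CPM against 1.42, 3.71 and 2.42 CPM (2.1, adjusted p = 0.0522). MKK9, a MAP kinase kinase of ethylene and camalexin responses, had 102, 119 and 67.7 CPM against 51.2, 44.2 and 49.3 CPM (1.00, adjusted p = 0.0113). PUB18 differed from the others in that its 3 ethanol libraries were nearly level, and each of the 4 lost its call in at least 3 of the 6 fits that left out a library. PUB18 was called only without ethanol replicate 3, ATL6 also without water replicate 2, CNI1 also without water replicate 1, and MKK9 also without water replicates 1 or 3.

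Salicylate and pathogen defence genes gave 3 higher and 0 lower of 19 tested (median 0.17), against 0.888% and 0.104% of all tested genes. Values ran from -2.57 to 1.93, and 3 were higher and 1 was lower at an unadjusted p-value under 0.05. When only the 6 libraries at 3 DAD were fitted, 3 were called higher and 1 lower of 18 tested. That fit called 1.43% of the genes it tested. HSPRO2, a gene of resistance to bacteria that responds to energy supply, had 458, 403 and 124 CPM in ethanol and 80.1, 91.8 and 86.3 CPM in water, with a log2 fold change of 1.93 (adjusted p = 0.000866, SE 0.301). NHL3, a plasma membrane protein induced by bacteria, had 593, 494 and 149.7 CPM against 126, 133 and 121 CPM, with a log2 fold change of 1.70 (adjusted p = 0.00081, SE 0.263). RBOHD, the NADPH oxidase of the immune oxidative burst, had 56.2, 59.1 and 22.3 CPM against 18.5, 21.8 and 16.1 CPM (1.28, adjusted p = 0.0931) and was called only without ethanol replicate 3. None of the 3 genes overlapped between the groups, and in each of them ethanol replicate 3 lay nearest to water. MYB51, a regulator of indole glucosinolate synthesis, was the 1 higher gene of 10 tested in its pathway, at 44.5, 43.7 and 16.0 CPM against 11.0, 16.2 and 12.0 CPM (1.40, adjusted p = 0.0524), and was called only without ethanol replicate 3. ACS6, which makes the ethylene precursor, was the 1 higher gene of 15 tested in ethylene synthesis and signalling, at 77.2, 55.8 and 18.02 CPM against 11.8, 11.6 and 12.7 CPM (2.06, adjusted p = 0.092), and was likewise called only without ethanol replicate 3.

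Several genes outside these families were as strongly different. AT3G04640, which encodes a glycine-rich protein, had 199, 165 and 18.9 CPM in ethanol and 18.4, 10.7 and 10.6 CPM in water, with a log2 fold change of 3.28 (adjusted p = 0.00030, SE 0.462). FBS1, an F-box protein induced by diverse stresses, had 33.7, 45.3 and 3.99 CPM against 2.85, 3.16 and 3.95 CPM, with a log2 fold change of 3.05 (adjusted p = 0.0034, SE 0.553). Both genes had an ethanol replicate 3 that exceeded the highest water library by only a small margin. SRC2, a C2-domain protein that binds to RBOHF in calcium signalling and is named after its values were seen, had 427, 421 and 77.2 CPM against 60.2, 76.7 and 68.3 CPM, a log2 fold change of 2.17 (adjusted p = 0.000642, SE 0.327). GDU2, a gene of amino acid export, had only 1.296, 3.56 and 3.63 CPM against 0, 0.545 and 0.382 CPM (3.07, SE 0.758, adjusted p = 0.0524), and was called only in the fit without ethanol replicate 1. The remaining genes among the 15 highest were PP2-A5 (2.81), AT2G27080 (2.76), AT1G67856 (2.59), AT4G28140 (2.33) and SCPL12 (2.28), given as log2 fold changes, with adjusted p-values from 0.0206 to 0.0931. Of these, PP2-A5 and AT2G27080 were called only without ethanol replicate 3, AT1G67856 and AT4G28140 only without ethanol replicate 3 or water replicate 3, and SCPL12 only without ethanol replicate 2 or 3 or water replicate 3.

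The third ethanol library stood apart from the first and second in this set of genes. Of the 171 higher genes, it was the lowest of the 3 ethanol libraries in 161, and ethanol replicate 1 was the highest in 123. It was above every water library in 126 genes and below the highest water library in 45. On the log2 scale of CPM with 0.5 added, the difference of ethanol replicate 3 from the water mean was a median 26.6% of the difference shown by the mean of ethanol replicates 1 and 2. The share was under 50% in 133 genes, from 50% to 80% in 21, and over 80% in 17. The rank correlation over all tested genes was 0.974 between ethanol replicates 1 and 2, 0.971 and 0.968 between replicate 3 and each of them, and 0.972 to 0.973 between replicate 3 and the water libraries. The water libraries correlated with one another at 0.972 to 0.975, and with ethanol replicates 1 and 2 at 0.964 to 0.968. These are correlations across genes, which are not independent replicates, and are given as descriptions.

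**Figure D2:**
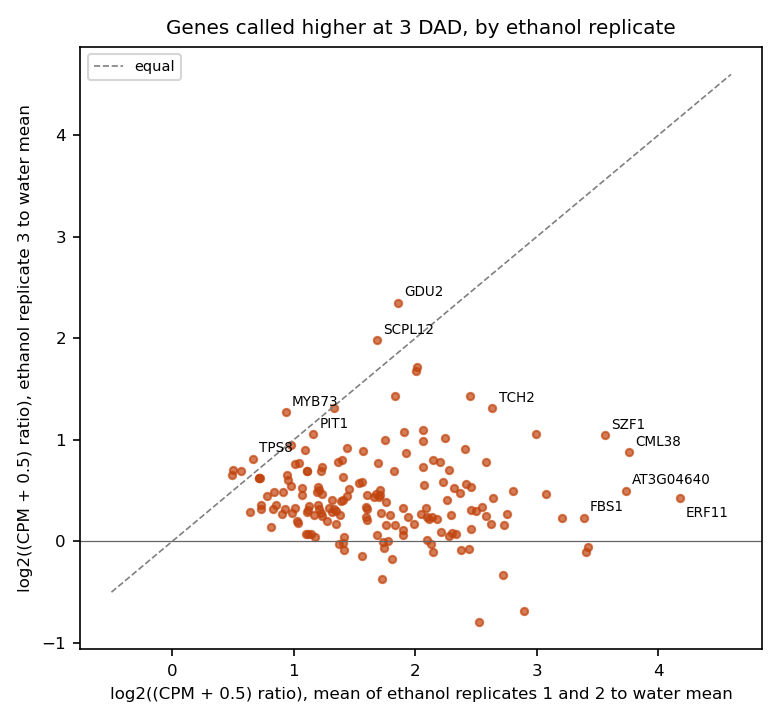
Each point is 1 of the 171 higher genes, with the log2 ratio of the mean of ethanol replicates 1 and 2 to the water mean on the horizontal axis and that of ethanol replicate 3 to the water mean on the vertical axis (CPM with 0.5 added); the dashed line marks equal ratios. Most points lie below the line, with a median share of 26.6%, and 17 genes have a share over 80%.

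A smaller set of higher genes did not show this pattern, and its members are described after their values were seen. TPS8, a trehalose phosphate synthase-like protein of sugar signalling, had 81.3, 94.5 and 97.6 CPM in ethanol and 55.3, 58.0 and 52.5 CPM in water, with a log2 fold change of 0.72 (adjusted p = 0.0027, SE 0.125). PIT1, annotated as a RING-type zinc finger protein, had 29.3, 28.9 and 27.1 CPM against 13.2, 12.4 and 12.6 CPM, with a log2 fold change of 1.16 (adjusted p = 0.0042, SE 0.214). MYB73, a transcription factor of salt responses, had 126, 107 and 148 CPM against 57.6, 59.4 and 65.6 CPM, with a log2 fold change of 1.06 (adjusted p = 0.0194, SE 0.231). All 3 ethanol libraries of each gene were well above all 3 water libraries, and TPS8 and PIT1 were called in each of the 6 fits that left out a library, whereas MYB73 lost its call without ethanol replicate 1, water replicate 1 or water replicate 2. The other genes with a share over 80% were PUB18, AT1G50950, AT1G61660, SCPL12, AT2G24280, AT4G10270, GDU2, AT4G28703, AT5G04910, AT5G11070, AT5G22920, AT5G24760 and the pair AT5G64550 and AT5G64552, which had identical counts in the table.

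Counts of calls in the hormone and drought lists stand beside a share of 0.992% over all tested genes, so 0 or 1 call in a list of this size is no result about the list. Of 28 tested drought marker genes, 0 were called by edgeR's quasi-likelihood test, 4 had an unadjusted p-value under 0.05, all higher, and DESeq2 called 1. Their median log2 fold change was 0.24, and 26 of the 28 were above 0, with values from -0.27 to 1.06. When only the 6 libraries at 3 DAD were fitted, 6 of the 28 were called, in a fit that called 245 of 17083 tested genes (1.43%). NAC019, a drought-induced NAC factor, had 55.5, 76.8 and 44.8 CPM in ethanol and 26.0, 34.8 and 24.0 CPM in water, with a log2 fold change of 1.06 (adjusted p = 0.155). RD26, a related factor, had 59.9, 77.3 and 82.4 CPM against 40.3, 38.6 and 36.6 CPM, with a log2 fold change of 0.93 (adjusted p = 0.244). The groups of both genes did not overlap, yet neither passed the test, and in RD26 ethanol replicate 3 was the highest library. The summed drought markers were 10530, 9800 and 11920 CPM in ethanol and 9795, 8377 and 8325 CPM in water, groups that did not overlap by a narrow margin.

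Of 35 tested genes of abscisic acid (ABA) metabolism and signalling, 1 was higher and 0 lower (median 0.15). The higher gene was CYP707A3, which encodes an ABA 8'-hydroxylase that breaks the hormone down, at 37.6, 21.1 and 5.44 CPM in ethanol and 3.98, 4.36 and 5.10 CPM in water. Ethanol replicate 3 exceeded the highest water library by little, and the log2 fold change of 2.25 (adjusted p = 0.0405, SE 0.539) was called only without ethanol replicate 3. NCED3, the enzyme of the key step in ABA synthesis under drought, had 21.2, 27.6 and 23.9 CPM against 15.7, 11.9 and 16.6 CPM (0.72, adjusted p = 0.762). ABI1, a phosphatase that represses ABA signalling, had 124, 131 and 126 CPM against 92.6, 85.7 and 102 CPM (0.45, adjusted p = 0.762). For NCED3 and ABI1 the groups did not overlap, but the differences did not pass the test.

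The study's text names 17 of the genes, in part from these samples, so the list is not independent evidence of a direction. Of the 17, CYP707A3 and DREB2A were higher and 0 were lower, with a median of 0.26. The ethanol-metabolising genes in it gave log2 fold changes of 0.26 for ADH1 (alcohol dehydrogenase), 0.53 for ALDH2B7, -0.06 for ALDH2B4 and -0.18 for ALDH2C4 (aldehyde dehydrogenases), with adjusted p-values from 0.762 to 0.978. ADH1 had 19.4 to 23.3 CPM in ethanol and 16.2 to 18.8 CPM in water, a small gap between groups that did not overlap. PMDH2, a peroxisomal malate dehydrogenase, gave -0.03 (adjusted p = 0.997). The drought-responsive LTI78 (RD29A), P5CS1, GolS3, LTI65 (RD29B), LEA7 and the ABA-responsive factor ABF2 (AREB1) lay between 0.15 and 0.33, with overlapping groups and adjusted p-values from 0.931 to 0.988. MYC2, the main transcription factor of jasmonate responses, had 92.1, 97.2 and 39.7 CPM against 55.1, 31.7 and 52.5 CPM (0.72, adjusted p = 0.527).

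Of 29 tested jasmonate genes, 0 were called by edgeR's quasi-likelihood test, 6 had an unadjusted p-value under 0.05, all higher, and DESeq2 called 1, while the fit without ethanol replicate 3 called 4. The median was 0.33. JAZ1, a repressor of jasmonate responses that the hormone itself induces, had 146, 121 and 43.8 CPM in ethanol and 54.6, 33.0 and 43.5 CPM in water (1.25, adjusted p = 0.16). LOX4, a lipoxygenase of jasmonate synthesis, had 20.3, 9.79 and 0.726 CPM against 2.56, 1.96 and 1.66 CPM (2.32, adjusted p = 0.173). In both genes ethanol replicates 1 and 2 were above all water libraries and ethanol replicate 3 was not.

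Genes of ethanol metabolism and gluconeogenesis (15 tested, median 0.02), flavonoid synthesis (20, -0.01), aliphatic glucosinolate synthesis (16, -0.01), the circadian clock (19, 0.23) and heat shock (12, 0.31) gave 0 calls by edgeR's quasi-likelihood test. At an unadjusted p-value under 0.05 they gave 1, 1, 0, 2 and 2 genes, all higher, and DESeq2 called 1 heat shock gene and 0 in the other lists. In the photosynthesis list, 0 of 34 genes were called by edgeR's quasi-likelihood test or by DESeq2, and 0 had an unadjusted p-value under 0.05. Yet only 1 of the 34 lay above 0, and all were within a narrow band from -0.22 to 0.0041, with a median of -0.14. The summed photosynthesis level was 188000, 180200 and 200100 CPM in ethanol and 222900, 195300 and 208600 CPM in water, so that the groups overlapped.

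**Figure D3:**
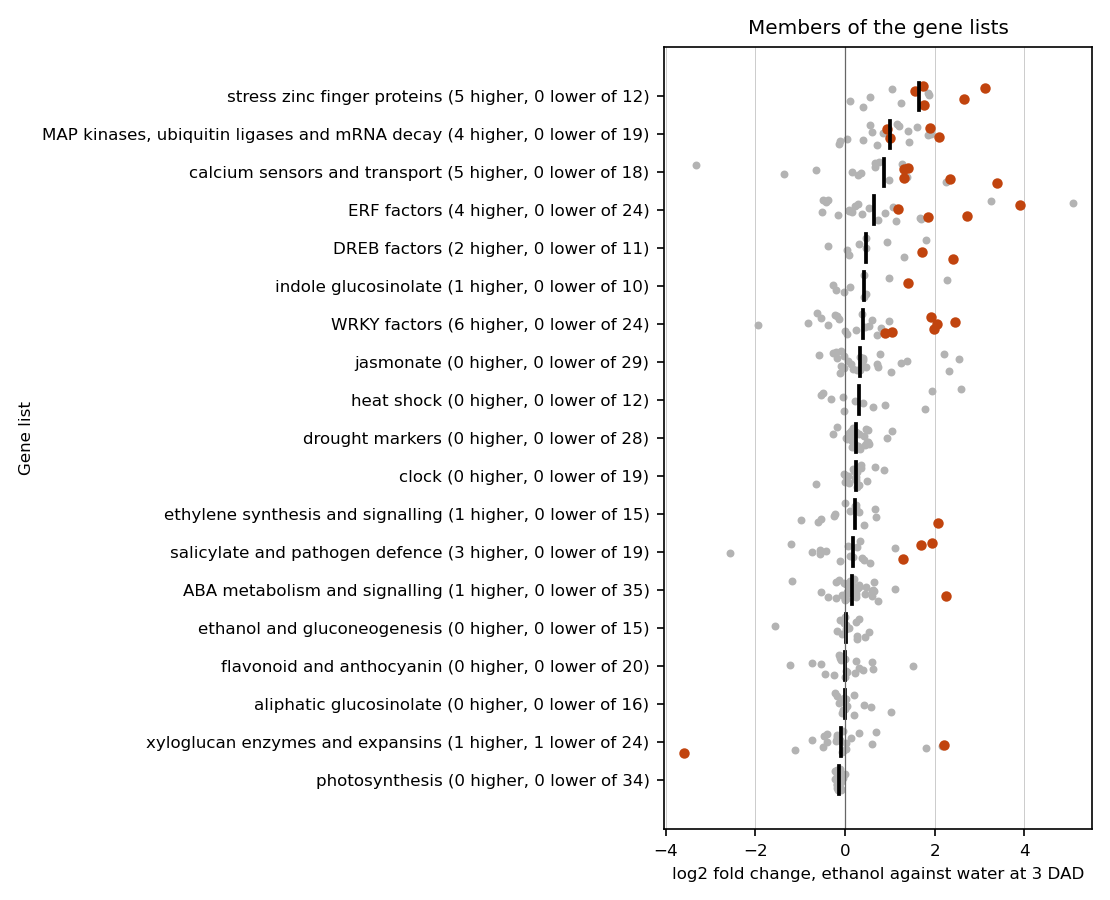
Log2 fold change (ethanol over water at 3 DAD) of every tested member of 19 gene lists, with called genes in orange, genes that were not called in grey and the median of each list as a black bar. The zinc finger list has the highest median (1.66, 5 of 12 called), and the photosynthesis list sits in a narrow band below 0 (median -0.14, 0 of 34 called). Of all tested genes 0.992% were called, and the lists were chosen with earlier results of these data known.

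XTH3 and AT4G33355, among the lower genes with the largest changes, were at low levels in the ethanol libraries. XTH3, a xyloglucan endotransglucosylase-hydrolase of the cell wall, had 1.53, 2.16 and 0.121 CPM in ethanol and 13.5, 10.14 and 22.9 CPM in water, with a log2 fold change of -3.60 (adjusted p = 7.95e-05, SE 0.449). AT4G33355, annotated as a lipid-transfer protein, had 0.471, 0.890 and 0.363 CPM against 3.41, 10.03 and 9.43 CPM, with a log2 fold change of -3.72 (adjusted p = 5.94e-05, SE 0.443). XTH3 was the 1 lower and TCH4 the 1 higher of 24 tested xyloglucan enzymes and expansins (median -0.09). Among all tested genes 0.104% were lower and 0.888% higher. Neither XTH3 nor AT4G33355 overlapped between the groups, and both were called in all 6 fits that left out a library. CYP86C4, a cytochrome P450 named after its values were seen, had 0 counts in the 3 ethanol libraries together and 22 in the 3 water libraries, at least 7.51-fold lower against a limit of 3 counts over the group. It was called in none of the fits that left out a library.

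The pollen coat genes were described together. GRP17, an oleosin-type protein of the pollen coat that is needed for rapid hydration of the grain, had 4.48, 20.5 and 5.08 CPM in ethanol and 28.9, 82.6 and 49.1 CPM in water, with a log2 fold change of -2.43 (adjusted p = 0.0013, SE 0.397). GRP19 had 5.30, 12.6 and 2.78 CPM against 21.9, 31.3 and 26.3 CPM, with a log2 fold change of -1.95 (adjusted p = 0.0021, SE 0.332). In both genes the highest ethanol library was replicate 2, which still lay below the lowest water library. GRP20, of the same family and named after its values were seen, had 3.18, 9.28 and 1.94 CPM against 8.54, 22.6 and 30.3 CPM, with a log2 fold change of -2.11 (adjusted p = 0.0060, SE 0.401) and overlapping groups, and lost its call without ethanol replicate 1. GRP16 held only 3 counts in the ethanol libraries and 57 in the water libraries, a ratio of 19.5 (95% interval 6.33 to 97.1, counting error only), and 5.34 of its CPM lay in water replicate 2, against 0.854 and 0.255 in water replicates 1 and 3. It was called (adjusted p = 0.0524), but in the fits that left out a library it was called only without water replicate 1 or 3. EXL6 and EXL4, the latter a lipase that acts in pollen hydration on the stigma, had log2 fold changes of -2.11 (adjusted p = 0.0087) and -1.77 (adjusted p = 0.0401). EXL6 had 1.18, 3.81 and 2.18 CPM against 5.83, 14.5 and 10.3 CPM and lost its call without ethanol replicate 1 or water replicate 2, and EXL4 had 8.13, 18.3 and 1.81 CPM against 23.5, 26.3 and 46.4 CPM and lost it without ethanol replicate 1, ethanol replicate 3 or water replicate 3. Of the 6 tested oleosin-type GRP genes 4 were lower, and both tested EXL genes, against 0.104% of all tested genes. These groupings were made after the values were seen, so the counts are no separate evidence on the families.

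**Figure D4:**
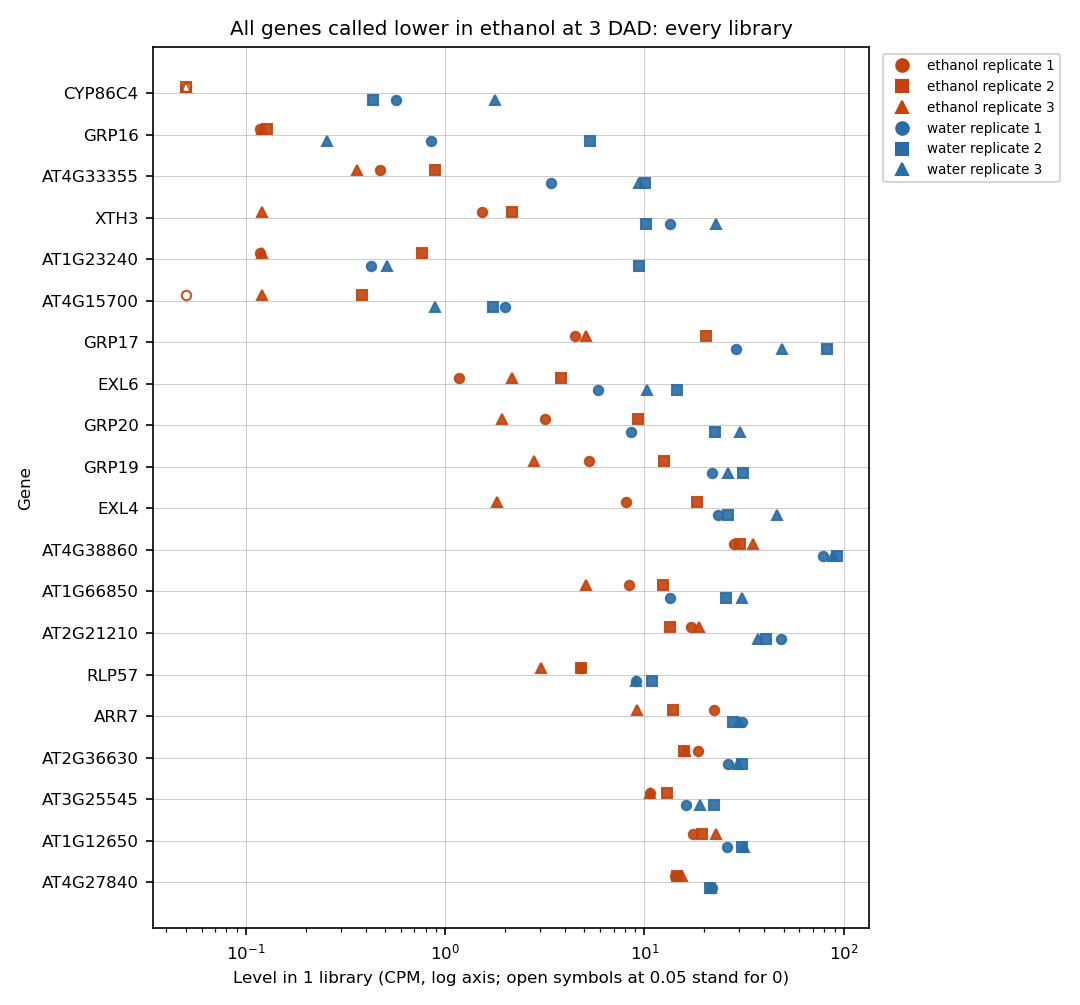
CPM (log axis) of each ethanol and each water library at 3 DAD for all 20 lower genes, with an open symbol at 0.05 CPM standing for 0. XTH3 and AT4G33355 show the widest gaps, the GRP and EXL genes have ethanol replicate 2 nearest to water, and AT4G38860 has 28.0 to 35.0 CPM in ethanol and 78.5 to 92.5 CPM in water.

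The anther and tapetum marker list holds 23 genes, and its 5 lower members of 20 tested are GRP16, GRP17, GRP19, EXL4 and EXL6. These were described above, so the list is no separate evidence on them. The median log2 fold change of the 20 was 0.02, with 10 above 0, and the 15 members that were not called had a median of 0.22. The summed level of the list was 86.4, 163 and 65.6 CPM in ethanol and 148, 245 and 228.5 CPM in water, so that ethanol replicate 2 lay above water replicate 1, with 1 to 3 members at 0 in each library. Without the 5 called genes, which were left out after their values were seen, the sum was 67.2, 107.3 and 53.6 CPM in ethanol and 67.2, 85.1 and 96.2 CPM in water, ranges that overlapped widely. Markers of floral organs (14 genes) summed to 60.0, 88.6 and 38.3 CPM against 66.0, 87.0 and 108 CPM, and 0 of 13 tested were called by edgeR's quasi-likelihood test, with 2 at an unadjusted p-value under 0.05, both lower. From 0 to 5 DAD the anther sum was larger at each later harvest in both arms. In water it was 11.7 to 17.63 CPM at 0 DAD, 68.1 to 71.4 at 1 DAD and 350.7 to 504.6 at 5 DAD, and in ethanol it was 10.4 to 28.0 at 0 DAD, 38.2 to 65.3 at 1 DAD and 420.8 to 482.6 at 5 DAD. The labels do not give the number of flower buds per sample.

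The most even of the lower genes named here was a gene of the auxin response. AT4G38860, a SAUR-like gene, had 28.0, 30.3 and 35.0 CPM in ethanol and 78.5, 92.5 and 88.1 CPM in water, with a log2 fold change of -1.47 (adjusted p = 0.0067, SE 0.284). The groups were far apart, and the gene was called in all 6 fits. AT2G21210, another SAUR-like gene named after its values were seen, had 17.1, 13.5 and 18.7 CPM against 48.4, 40.7 and 37.3 CPM, with a log2 fold change of -1.36 (adjusted p = 0.0126, SE 0.28), overlaps AT2G21200 on the same strand and lost its call without ethanol replicate 2. Both belong to 57 tested SAUR-like genes, a grouping made after the values were seen, of which 2 were lower (3.51%) and 0 higher. The share of lower genes over all tested genes was 0.104%. ARR7, a type-A response regulator that dampens cytokinin signalling, also named after its values were seen, had 22.4, 13.9 and 9.19 CPM against 30.7, 27.8 and 29.8 CPM, with a log2 fold change of -0.96 (adjusted p = 0.0784, SE 0.249), and in the fits that left out a library it was called only without ethanol replicate 1. The rest of the 20 were AT1G23240, AT4G15700, AT1G66850, RLP57, AT2G36630, AT3G25545, AT1G12650 and AT4G27840.

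The other harvests have libraries of their own and show whether these genes differed there too. At 1 DAD 124 of the 171 higher genes (72.5%) were above 0, at 5 DAD 130 (76.0%), and of all tested genes 50.5% and 49.5% were. At both days 0 of all tested genes were called by edgeR's quasi-likelihood test. An unadjusted p-value under 0.05 was found for 3 of the 171 at 1 DAD (1.75%, against 3.05% of all tested genes) and for 32 at 5 DAD (18.7%, against 4.07%). At 0 DAD, the end of the ethanol pretreatment, only 61 of the 171 were above 0 (35.7%, against 48.1% of all), with 2 called higher and 4 lower where 1.71% of all tested genes were called. At 7 DAD 96 were above 0 (56.1%, against 51.9% of all), with 59 called higher and 49 lower, at a harvest where 11653 genes, 60.5% of those tested, were called. The 20 lower genes were above 0 in 10, 7, 11 and 14 cases at 0, 1, 5 and 7 DAD.

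Group means over the harvests show how the difference at 3 DAD was made up. CML38 in water had 36.9 ± 6.48 CPM (SD, n = 3) at 0 DAD and 5.17 ± 0.962 at 3 DAD, while the ethanol mean at 3 DAD was 54.3 ± 39.3. TCH2 had 52.0, 73.4, 18.4, 18.5 and 11.6 CPM in water over the harvests from 0 to 7 DAD and 35.0, 79.0, 93.4, 38.7 and 60.6 CPM in ethanol. STZ had 49.3, 43.7, 16.0, 12.7 and 382 CPM in water and 50.3, 32.2, 100.1, 25.2 and 63.6 CPM in ethanol. In these 3 genes the water means at 3 DAD were below those at 0 and 1 DAD, and the ethanol means were the highest of that arm. At 7 DAD STZ was lower in ethanol (log2 fold change -2.58, adjusted p = 2.79e-05). GRP17 had 1.99 CPM at 1 DAD, 53.5 at 3 DAD and 138 at 5 DAD in water, and 3.24, 10.0 and 173.5 CPM in ethanol. XTH3 had 0.393, 15.5 and 57.1 CPM in water at 1, 3 and 5 DAD and 0.474, 1.27 and 36.2 CPM in ethanol. For both genes the water mean was several times the ethanol mean at 3 DAD, and the ratio of the arms was nearer to 1 at 1 DAD and at 5 DAD, although in CPM the arms of XTH3 were further apart at 5 DAD.

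**Figure D5:**
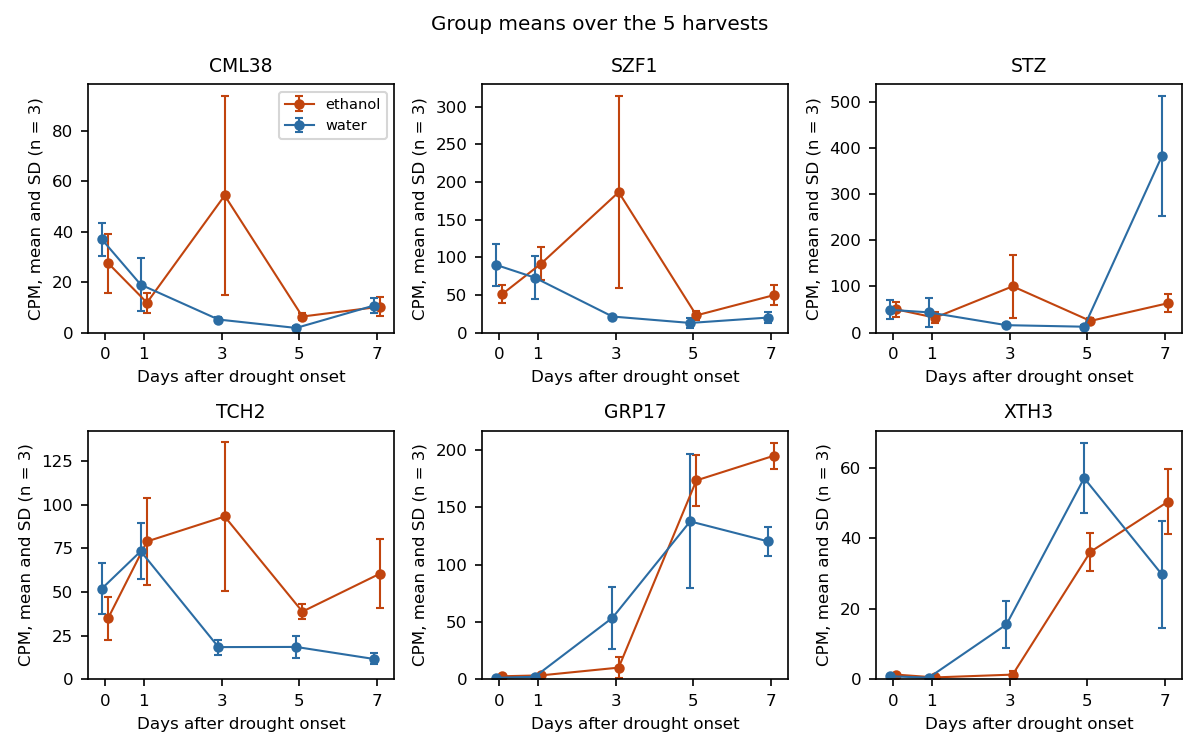
Mean CPM ± SD (n = 3 libraries) of CML38, SZF1, STZ, TCH2, GRP17 and XTH3 at each of the 5 harvests in both arms. At 3 DAD the ethanol mean of CML38 is 54.3 CPM against 5.17 in water, and that of GRP17 is 10.0 against 53.5.

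The difference at 3 DAD was itself tested against the mean of the differences at 1 and 5 DAD. By edgeR's quasi-likelihood test 8 genes were called in this test, 0.0416% of those tested. AT3G04640 (2.92, adjusted p = 0.0565), SZF1 (2.55, adjusted p = 0.0835), SRC2 (2.02, adjusted p = 0.0636), MSS3 (1.48, adjusted p = 0.0565) and CPK32 (1.36, adjusted p = 0.0835) had a larger ethanol excess on the log2 scale at 3 DAD than at its neighbours. GRP17 (-2.92, adjusted p = 0.0422), XTH3 (-3.39, adjusted p = 0.0776) and AT4G33355 (-4.24, adjusted p = 0.0036) had a larger deficit. All 8 were also called at 3 DAD alone. For the other genes called at 3 DAD the difference between harvests did not pass the test, and the count of 8 ranged from 1 without ethanol replicate 1 to 128 without ethanol replicate 3.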

How the data were processed

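RNA of whole shoots had been made into stranded libraries by Lasy-Seq. Per the study's methods, the authors trimmed reads with Trimmomatic, aligned them to TAIR10 with HISAT2 and counted them per gene with featureCounts. The deposited table used here holds raw counts for 27417 genes, with introns counted and reads allowed to count for more than 1 gene. The deposited normalised signal was not used. Genes were filtered with filterByExpr, which removed 8168, left 19249 and kept 99.95% of the counts. All 30 libraries entered 1 quasi-likelihood fit of group means in edgeR 4.0.16 and R 4.3.3 (TMM factors 0.951 to 1.01 at 3 DAD, dispersion 0.0472, 20 residual degrees of freedom). Ethanol was compared with water at 3 DAD, and that difference with the mean of those at 1 and 5 DAD. Called means an adjusted p-value (Benjamini-Hochberg) under 0.1. DESeq2 1.42.0 and the other alternatives are in the closing section.

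The 23 genes with the largest changes (15 higher, 8 lower, groups not overlapping, mean of at least 10 counts), up to 6 called members of each list and the 17 genes of the study's text are named. Members and lists were chosen with earlier results of these data known. Names and sequences come from RefSeq's TAIR10.1 annotation, matched by locus tag, in which 99.07% of the tested genes were found. The build differs in name from the authors' TAIR10, and the count table gives no coordinates. On simulated data 54% of genes changed 2-fold and 87% of those changed 4-fold were called, and 7.24% of the calls were unchanged genes. Changes were set only in genes with a mean of at least 10 counts, and noise was drawn independently for each gene and library. No simulated library departed over many genes at once, as ethanol replicate 3 did, so these rates cannot be carried over to the data. Replicate libraries differed by more than sampling noise (chi-square per gene 6.167 to 10.5), so none was counted as a duplicate.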

Additional observations from a re-analysis of the deposited data

Results flagged for a closer look

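The following 8 genes are listed because the ethanol effect on the log2 scale at 3 DAD differed from the mean effect at 1 and 5 DAD, by edgeR's quasi-likelihood test with Benjamini-Hochberg adjustment. The difference between harvests was 2.92 for AT3G04640, 2.55 for SZF1, 2.02 for SRC2, 1.48 for MSS3 and 1.36 for CPK32. It was -2.92 for GRP17, -3.39 for XTH3 and -4.24 for AT4G33355. All 3 ethanol libraries at 3 DAD were above all 3 water libraries for the first 5 genes and below them for the last 3.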

How the results depend on the processing

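The 191 calls (171 higher, 20 lower) came from edgeR with TMM factors, and with 1 replicate left out the total ran from 43 to 311, the higher genes from 35 to 295, the lower genes from 8 to 18 and the genes called in the test between harvests from 1 to 128. DESeq2 called 46 genes as lower and 50 in the test between harvests, and shared 187 of the 191 calls. Fitting only the libraries of the groups compared gave 41 lower genes and 16 in the test between harvests, with 145 of the 191 calls shared. With no filter on low counts 53 genes were called in the test between harvests. At an adjusted p-value under 0.05 there were 125 calls in all, 10 of them lower, and 2 in the test between harvests. RLE size factors, library totals, the 2-fold limit and, as an alternative added after the data were seen, leaving out the harvest at 7 DAD gave 145 to 240 calls. Library totals moved the median of all genes to 0.04 on the log2 scale, and 92.4% of the calls were then higher, against 89.5% here and 78.6% without ethanol replicate 2.

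Replicate numbers are shared between the arms, but nothing in the sources ties a number to a pot or day. At 3 DAD the deviations of same-numbered libraries correlated at 0.0549, 0.111 and 0.00178, so the numbers were not taken as pairs. With the replicate number as a block 165 genes were called (146 higher, 19 lower), 144 of them shared, and 2 genes in the test between harvests. Ethanol replicates 1 and 2 correlated best with their own number and ethanol replicate 3 with water replicate 1 (0.0283).

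Of the named genes, 4 with small, uncalled log2 fold changes turned sign with 1 replicate left out: ABF2 ran from -0.0887 (without ethanol replicate 3) to 0.298, DREB1A from -0.0333 (without ethanol replicate 1) to 0.22, ALDH2B4 from -0.121 to 0.0265 (without water replicate 1), and PMDH2 from -0.087 to 0.0371 (without water replicate 1; also positive, at 0.036, without ethanol replicate 2). PMDH2 stood at 0.0116 with library totals. No cause of any of these shifts was tested. Depth limits the lowest genes, such as GRP16 and CYP86C4, whose ethanol libraries together held 3 and 0 counts.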
